A study of Mus musculus with 13 samples.

Results

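The genes described here are 10 glucocorticoid-responsive genes, chosen by symbol from a table of 54532 genes: Nr3c1, Hsd11b1, Fkbp5, Tsc22d3, Zbtb16, Klf9, Sgk1, Errfi1, Mt1 and Mt2. All 10 symbols were found, and all 10 passed the filter on low values, which 14421 genes passed. The filter required 3 or more libraries with a level of 1 FPKM or higher. FPKM is a level scaled to gene length and to a total for each library, which was not the library's own read total. The values come from bulk RNA-seq of inguinal white adipose tissue, a subcutaneous depot, of 13 single mice fasted for 12 h. Of these, 3 slept normally and ate normal chow (SC_ConD), 5 had their sleep fragmented and ate the same chow (SF_ConD), and 5 had their sleep fragmented and ate a high-protein diet (SF_HPD; 50% of calories from protein, 12% from fat and 38% from carbohydrate). The sources used here give no strain, genotype, sex or age, nor how and for how long sleep was fragmented, and the labels name no transgene or drug. By its title the study concerned the diet's bearing on effects of chronic sleep fragmentation, inflammation of fat among them. No group analysed here combined normal sleep with the high-protein diet.

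Corticosterone, the main glucocorticoid of mice, enters the cell and binds the glucocorticoid receptor, which is held ready by heat shock proteins and their co-chaperones and then moves to the nucleus to switch genes on or off. The receptor's classic targets include a co-chaperone that dampens the receptor itself, transcription factors that carry the signal on, kinases and their inhibitors, and the metal-binding metallothioneins. In fat the hormone influences lipid release, adipocyte differentiation and inflammation, and adipocytes can regenerate active hormone from its inert form.

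Promoter windows of 300 bases (250 before and 50 after an annotated gene start) were available for 8 of the 10 genes, not for Zbtb16 and Nr3c1, from RefSeq on build GRCm38.p6. They were searched on both strands for the glucocorticoid response element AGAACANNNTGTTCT, its half-site AGAACA, which the full element contains, the metal response element core TGCACNC or TGCGCNC, and the E-box CACGTG. Among 32851 mouse windows 3 held the full element (0.00913%), and 1 of these was 1 of the 6 windows of Sgk1. It is shown because no other window of the 8 genes held the full element, which begins at base -189 from the start and is in capitals:
Sgk1, chr10:21993640-21993939, plus strand: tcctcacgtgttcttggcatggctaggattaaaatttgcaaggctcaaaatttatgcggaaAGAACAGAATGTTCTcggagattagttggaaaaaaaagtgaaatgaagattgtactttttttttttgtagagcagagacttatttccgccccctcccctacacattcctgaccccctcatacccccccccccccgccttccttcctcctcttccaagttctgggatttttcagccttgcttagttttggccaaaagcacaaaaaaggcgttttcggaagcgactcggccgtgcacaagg

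The windows of the neighbouring genes Mt1 and Mt2 are shown because the levels of these genes moved together over the libraries. Capitals mark the metal response element cores, the letters bound by the zinc-sensing factor Mtf1, on either strand:
Mt1, chr8:94178839-94179138, plus strand: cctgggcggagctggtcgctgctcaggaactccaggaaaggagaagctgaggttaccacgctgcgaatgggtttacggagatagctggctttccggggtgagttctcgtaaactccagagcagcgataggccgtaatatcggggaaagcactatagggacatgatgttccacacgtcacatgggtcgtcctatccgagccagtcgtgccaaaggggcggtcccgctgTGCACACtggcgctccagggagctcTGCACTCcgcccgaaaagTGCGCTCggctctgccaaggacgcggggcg
Mt2, chr8:94172368-94172667, plus strand: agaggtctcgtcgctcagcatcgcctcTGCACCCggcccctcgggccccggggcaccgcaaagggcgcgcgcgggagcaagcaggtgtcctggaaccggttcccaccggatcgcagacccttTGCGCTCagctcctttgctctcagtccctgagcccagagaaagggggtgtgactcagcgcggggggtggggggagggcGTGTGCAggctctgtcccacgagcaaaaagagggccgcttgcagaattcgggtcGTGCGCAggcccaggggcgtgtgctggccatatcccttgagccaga

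The Mt1 window held 3 cores, beginning at bases -23, 2 and 20 from the annotated start. The Mt2 window held 4, at -223, -128, -50 and 4, of which 2 read on the minus strand. At least 1 core was present in 25.7% of all windows, at least 3 in 1.97% and at least 4 in 0.517%. Of the other 6 genes with a window, Hsd11b1 had 1 core in its only window and Sgk1 1 core in another of its windows. Half-sites were present in 19.0% of all windows and E-boxes in 7.15%. A match of letters is a description of the sequence and not a bound site.

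Reads on genes, recovered from the deposited values, ran from 14815592 to 18303302 per library. The total that FPKM is scaled to was 0.479 (SF_HPD 2) to 1.23 (SF_HPD 1) times these reads, so FPKM levels also carry this factor between libraries. The libraries differed strongly within groups in transcripts of tissues other than fat, in coverage of long genes and in mitochondrial reads. The share of recovered reads on mitochondrial genes ran from 2.82% in SF_HPD 1 to 33.2% in SF_ConD 5. The 12 liver markers, all of them kept, had a mean log2(FPKM + 1) of 9.47 in SC_ConD 2 and 8.23 in SC_ConD 3, against 2.62 in SC_ConD 1, 1.24 to 4.36 in SF_ConD and 1.54 to 2.37 in SF_HPD. The B cell and lymph node markers, 11 of 12 kept, lay at 4.59 to 5.49 in SF_ConD 1, 4 and 5 and SF_HPD 4 and 5, called lymphoid-rich below, and at no more than 1.66 in the other 8 libraries, where Cd79a was listed at 0 in SF_HPD 2 and SC_ConD 3. Skeletal muscle markers, 9 of 10 kept, lay at 10.98 in SF_HPD 4, 7.25 in SC_ConD 3 and no more than 3.31 elsewhere. Adipocyte markers, 12 of 12 kept, lay at 8.34 to 9.87 in 12 libraries and at 4.99 in SF_HPD 2, where the epithelial keratin gene Krt18 stood at 5015 FPKM against no more than 743 FPKM elsewhere. A length trend, the Spearman correlation across genes of gene length with a library's deviation from the mean level, was computed for each library. It was 0.484 to 0.563 in SF_HPD 1, SF_HPD 4, SF_ConD 3 and SC_ConD 1, the libraries with a length trend below. In the other 9 libraries it ran from -0.436 (SF_ConD 1) to 0.0319 (SF_ConD 4). Those 9 are called without, or low in, a length trend below, although most had a negative one. The part that any of these differences plays in the results below was not tested, and in bulk tissue fewer cells of a type and less RNA per cell cannot be told apart.

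No gene of the 10 passed the test in any of the 3 comparisons, and no gene of the 14421 did. The genes differed widely between libraries, also within a group. The folds below are of FPKM and include differences in the total that it is scaled to. From its lowest to its highest library Sgk1 differed 4.54-fold, Tsc22d3 6.42-fold, Nr3c1 6.78-fold, Fkbp5 12.2-fold, Hsd11b1 15.4-fold, Errfi1 21.4-fold, Mt2 26.3-fold, Klf9 38.7-fold and Mt1 53.3-fold, while Zbtb16 had no read in 1 library. The lowest library was SF_HPD 2 for 6 of the 10 genes, against 21.4% of all genes tested, and the same library, poor in adipocyte markers, was the highest for Mt2.

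**Figure D1:**
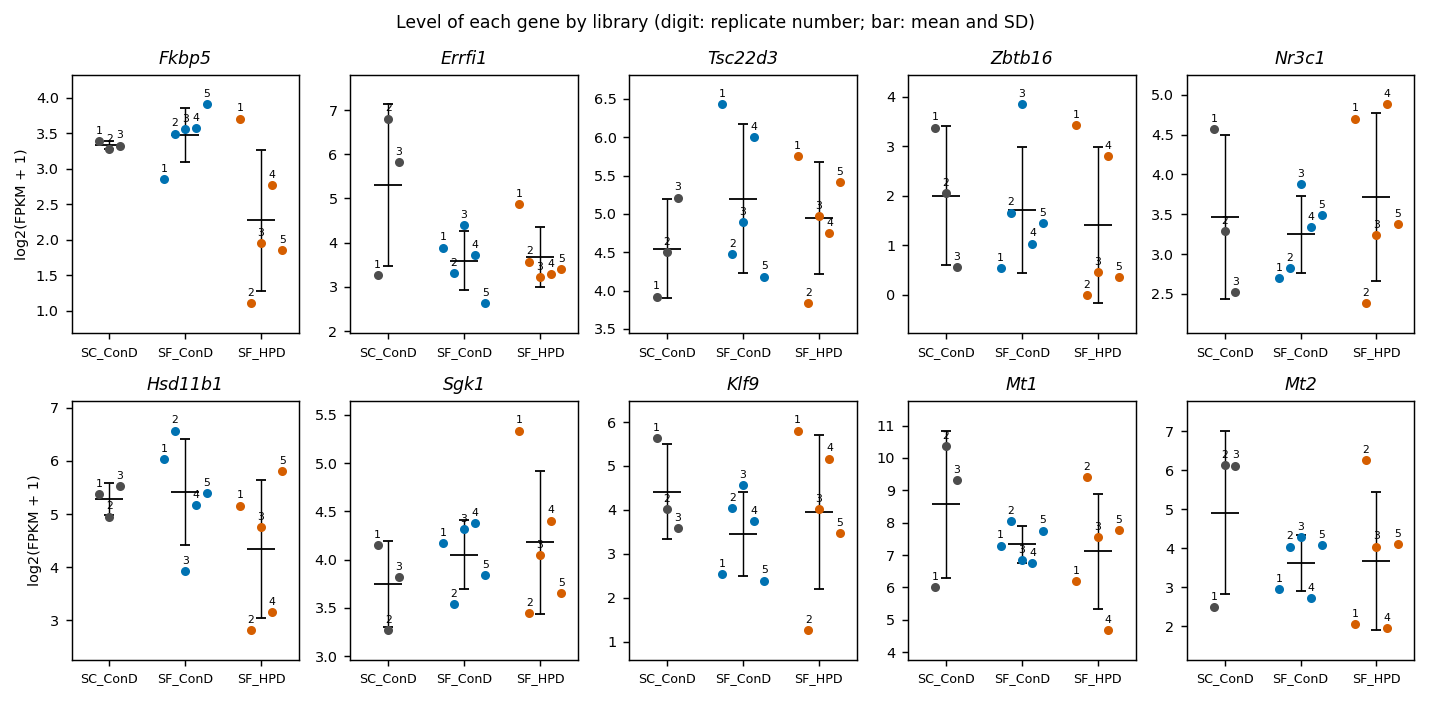
Level of each of the 10 genes as log2(FPKM + 1) on the vertical axis in the 3 groups on the horizontal axis, each point being 1 library with its replicate number and the bars the group mean and SD. Fkbp5 lies lower in SF_HPD 2, 3, 4 and 5 than in any SF_ConD library, while SF_HPD 1 lies among the highest.

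Nr3c1 (ENSMUSG00000024431, chromosome 18, 39410545 to 39491301 on GRCm38, minus strand) encodes the glucocorticoid receptor. Its level was 22.7, 8.79 and 4.75 FPKM in SC_ConD 1, 2 and 3. In SF_ConD 1 to 5 it was 5.48, 6.07, 13.7, 9.14 and 10.3 FPKM, and in SF_HPD 1 to 5 it was 25.03, 4.20, 8.45, 28.5 and 9.37 FPKM. The groups overlapped, and the 4 highest values were those of the 4 libraries with a length trend, 1 in SC_ConD, 1 in SF_ConD and 2 in SF_HPD. Group means were 12.1 ± 9.42 FPKM in SC_ConD, 8.92 ± 3.33 FPKM in SF_ConD and 15.1 ± 10.9 FPKM in SF_HPD (SD, n = 3, 5 and 5).

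Hsd11b1 (ENSMUSG00000016194, chromosome 1, 193221634 to 193264075, minus strand) encodes the enzyme of the endoplasmic reticulum that regenerates active corticosterone from its inert keto form. It stood at 40.6, 30.0 and 45.1 FPKM in SC_ConD 1 to 3. SF_ConD 1 to 5 had 64.5, 93.7, 14.2, 35.05 and 41.1 FPKM, and SF_HPD 1 to 5 had 34.7, 6.09, 26.0, 7.92 and 54.9 FPKM. All 3 groups overlapped; the lowest values were those of the adipocyte-poor SF_HPD 2 and the muscle-rich SF_HPD 4, and the highest that of SF_ConD 2. The means were 38.5 ± 7.77, 49.7 ± 30.4 and 25.9 ± 20.2 FPKM in SC_ConD, SF_ConD and SF_HPD (SD, n = 3, 5 and 5). The laminin gene Lamb3 and the antisense gene 4930570N18Rik overlap Hsd11b1 on the opposite strand and reached at most 3.91 and 7.56 FPKM; with no strand setting given in the sources used here, their reads cannot be told apart from those of Hsd11b1.

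Fkbp5 (ENSMUSG00000024222, chromosome 17, 28399094 to 28517527, minus strand) encodes an immunophilin that joins the receptor's chaperone complex and lowers its affinity for hormone, and that the receptor itself induces. SC_ConD 1 to 3 had 9.49, 8.70 and 9.05 FPKM, the narrowest group of any of the 10 genes. In SF_ConD the level was 6.22, 10.3, 10.8, 10.9 and 14.02 FPKM, and in SF_HPD it was 12.1, 1.15, 2.86, 5.84 and 2.61 FPKM. On the FPKM scale SF_HPD 2 to 5 lay below all 8 libraries of the chow groups. SF_HPD 1 lay above 7 of them, so the groups overlapped through SF_HPD 1. As a share of recovered reads, SF_HPD 4 (954 of 14815592) lay above SC_ConD 2 (765 of 15865457) and SF_ConD 1 (892 of 17840847). The means were 9.08 ± 0.396 FPKM in SC_ConD, 10.4 ± 2.78 FPKM in SF_ConD and 4.90 ± 4.35 FPKM in SF_HPD (SD, n = 3, 5 and 5). The lowest values rested on 94 reads in SF_HPD 2 and 245 in SF_HPD 5.

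Tsc22d3 (ENSMUSG00000031431, chromosome X, 140539528 to 140600659, minus strand) encodes the glucocorticoid-induced leucine zipper protein, which restrains inflammatory transcription factors and is abundant in lymphocytes. It stood at 14.2, 21.7 and 36.1 FPKM in SC_ConD. It was at 85.1, 21.3, 28.8, 63.1 and 17.2 FPKM in SF_ConD 1 to 5, and at 53.0, 13.3, 30.5, 25.9 and 41.8 FPKM in SF_HPD 1 to 5. The groups overlapped, and the 2 highest values, in SF_ConD 1 and 4, belonged to lymphoid-rich libraries; the other 3 lymphoid-rich libraries had 17.2, 25.9 and 41.8 FPKM. The means were 24.0 ± 11.1, 43.1 ± 29.7 and 32.9 ± 15.2 FPKM in SC_ConD, SF_ConD and SF_HPD (SD, n = 3, 5 and 5).

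Zbtb16 (ENSMUSG00000066687, chromosome 9, 48654297 to 48836222, minus strand) encodes a zinc finger transcription factor that glucocorticoids induce in many cell types. SC_ConD had 9.38, 3.16 and 0.483 FPKM. SF_ConD had 0.450, 2.17, 13.4, 1.05 and 1.75 FPKM, and SF_HPD had 9.72, 0, 0.372, 5.97 and 0.286 FPKM. The 4 values above 5 FPKM were those of the 4 libraries with a length trend, and the groups overlapped. SF_HPD 2 had 0 of 18061485 reads on the gene, which allows up to 3 reads or 0.0656 FPKM, a limit that covers counting error only. The means were 4.34 ± 4.56, 3.76 ± 5.42 and 3.27 ± 4.39 FPKM (SC_ConD, SF_ConD and SF_HPD; SD, n = 3, 5 and 5).

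Klf9 (ENSMUSG00000033863, chromosome 19, 23141226 to 23166911, plus strand) encodes a Krüppel-like factor that is a direct target of the receptor and represses other genes. Its values were 48.8, 15.2 and 11.1 FPKM in SC_ConD. They were 4.82, 15.4, 22.7, 12.4 and 4.24 FPKM in SF_ConD, and 54.8, 1.42, 15.3, 34.9 and 10.1 FPKM in SF_HPD. As for Nr3c1 and Zbtb16, the 4 highest values were in SF_HPD 1, SC_ConD 1, SF_HPD 4 and SF_ConD 3, and the groups overlapped. The means were 25.02 ± 20.7, 11.9 ± 7.71 and 23.3 ± 21.5 FPKM in the same order of groups (SD, n = 3, 5 and 5).

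Sgk1 (ENSMUSG00000019970, chromosome 10, 21882184 to 21999903, plus strand) encodes a serum- and glucocorticoid-regulated kinase that acts on ion channels and on FoxO factors. It stood at 16.8, 8.67 and 13.1 FPKM in SC_ConD, at 17.1, 10.6, 19.0, 19.9 and 13.3 FPKM in SF_ConD, and at 39.4, 9.92, 15.5, 20.2 and 11.6 FPKM in SF_HPD. Apart from SF_HPD 1, which was the highest, the libraries lay between 8.67 and 20.2 FPKM, and the groups overlapped. The means were 12.9 ± 4.06, 15.97 ± 3.90 and 19.3 ± 11.9 FPKM (SC_ConD, SF_ConD and SF_HPD; SD, n = 3, 5 and 5).

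Errfi1 (ENSMUSG00000028967, chromosome 4, 150853919 to 150868892, plus strand) encodes a feedback inhibitor of receptors of the epidermal growth factor family. It was at 8.58, 111 and 55.8 FPKM in SC_ConD 1, 2 and 3. SF_ConD 1 to 5 had 13.8, 8.94, 20.1, 12.2 and 5.17 FPKM, and SF_HPD 1 to 5 had 28.2, 10.9, 8.37, 8.77 and 9.57 FPKM. SC_ConD 2 and 3, the libraries rich in liver transcripts, lay above the other 11, while SC_ConD 1 lay within the range of both sleep-fragmented groups. Of the 10 genes Errfi1 was the only one higher in both than in the other 11 libraries, against 4.92% of all genes tested. The means were 58.4 ± 51.2, 12.0 ± 5.60 and 13.2 ± 8.48 FPKM in SC_ConD, SF_ConD and SF_HPD (SD, n = 3, 5 and 5).

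Mt1 (ENSMUSG00000031765, chromosome 8, 94179082 to 94180327, plus strand) and Mt2 (ENSMUSG00000031762, chromosome 8, 94172664 to 94173568, plus strand) encode metallothioneins, small cysteine-rich proteins that bind zinc and copper and that metals and glucocorticoids both induce. Mt1 stood at 63.3, 1324 and 635 FPKM in SC_ConD, at 156, 264, 113, 106 and 215 FPKM in SF_ConD, and at 72.2, 677, 186, 24.8 and 216 FPKM in SF_HPD. Mt2 stood at 4.64, 69.4 and 68.5 FPKM in SC_ConD, at 6.74, 15.5, 18.4, 5.64 and 15.8 FPKM in SF_ConD, and at 3.19, 75.2, 15.5, 2.86 and 16.3 FPKM in SF_HPD. On the FPKM scale both genes were highest in SC_ConD 2, SC_ConD 3 and SF_HPD 2, which lay apart from the other 10 libraries. By share of recovered reads the same libraries were highest, but SF_HPD 2 lay less far apart. Its Mt1 had 7299 of 18061485 reads, against 4911 of 16198217 in SF_ConD 2. Both genes were lowest in SF_HPD 4, SF_HPD 1 and SC_ConD 1, which have a length trend. SF_ConD 3, the other library with a length trend, did not share this: its Mt2 was the highest of the 10 libraries and its Mt1 lay above that of SF_ConD 4. Means of Mt1 were 674 ± 631, 171 ± 67.9 and 235 ± 259 FPKM, and those of Mt2 47.5 ± 37.1, 12.4 ± 5.81 and 22.6 ± 30.1 FPKM (SC_ConD, SF_ConD and SF_HPD; SD, n = 3, 5 and 5).

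In each library Mt1 exceeded Mt2, by 6.14-fold in SF_ConD 3 to 23.1-fold in SF_ConD 1 on the FPKM scale. This ratio rests on the gene lengths that the table uses, 1246 bases for Mt1, which is its whole span with introns, and 588 for Mt2. The annotated spliced transcripts run from 549 to 1085 bases for Mt1 and from 388 to 511 for Mt2. Per recovered read the ratio was 13.01 to 49.0. Reads were fewest for Mt2, 29 in SF_HPD 4 to 458 in SC_ConD 3, and the 2 genes are close paralogs, so how reads were split between them is uncertain.

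SF_ConD against SC_ConD compared fragmented with normal sleep on chow. On the log2(FPKM + 1) scale 4 of the 10 genes had a positive and 6 a negative fold change, with a median of -0.25 against -0.03 over all genes tested; scaled to each library's own read total the split was 5 and 5. Errfi1 had the largest difference, at 12.0 ± 5.60 FPKM against 58.4 ± 51.2 FPKM, and Mt1, Mt2 and Klf9 also had lower means in SF_ConD. Tsc22d3 and Sgk1 had the largest positive values.

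Limma, two-sided and with Benjamini-Hochberg adjustment over all genes tested, called 0 of 10 genes, against 0% of the 14421, and the smallest adjusted p of any gene was 0.716. At an unadjusted p under 0.05 there was 1 gene of 10 against 5.74% of all, and no gene of the 10 lacked overlap, against 1.68% of all that lay higher and 1.92% that lay lower without overlap. The 1 gene was Errfi1, with a log2 fold change of -1.71 (SE 0.68, limma adjusted p = 0.861). The other log2 fold changes were -1.30 (SE 0.997) for Mt2, -1.23 (SE 1.06) for Mt1, -0.96 (SE 0.89) for Klf9, -0.29 (SE 0.93) for Zbtb16 and -0.22 (SE 0.59) for Nr3c1. On the positive side they were 0.65 (SE 0.58) for Tsc22d3, 0.30 (SE 0.41) for Sgk1, 0.15 (SE 0.47) for Fkbp5 and 0.13 (SE 0.70) for Hsd11b1. Errfi1 passed without SC_ConD 1 (-2.73, limma adjusted p = 0.0245) and among the 9 libraries without a length trend (-2.93, limma adjusted p = 0.00934). In these 2 settings 194 and 162 of the 14421 genes passed, 189 and 157 of them lower in SF_ConD. In both, SC_ConD consists of the liver-rich SC_ConD 2 and 3. Without those libraries, with the spread of the single remaining SC_ConD library taken from the other groups, the fold changes were 0.33 for Errfi1, 1.33 for Mt1 and 1.12 for Mt2, with the sign turned for each.

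SF_HPD against SF_ConD compared the high-protein diet with chow under fragmented sleep. Of the 10 genes 5 had a positive and 5 a negative fold change, with a median of -0.07 against 0.01 over all genes tested; scaled to each library's own read total the split was 3 and 7. Fkbp5 had the lowest fold change, at 4.90 ± 4.35 FPKM on the diet against 10.4 ± 2.78 FPKM on chow. In FPKM it was lower than every SF_ConD library in 4 of 5 SF_HPD libraries. As a share of recovered reads, SF_HPD 4 lay above SF_ConD 1. Hsd11b1 had the next lowest fold change, at 25.9 ± 20.2 FPKM against 49.7 ± 30.4 FPKM. The receptor gene Nr3c1 and the target gene Klf9 had the highest positive values.

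Limma called 0 of 10 genes, against 0% of all, with a smallest adjusted p of 1 over the 14421 genes. At an unadjusted p under 0.05 there was 1 gene of 10 against 1.89% of all, and no gene of the 10 lacked overlap, against 0.229% of all in each direction. The 1 gene was Fkbp5, with a log2 fold change of -1.20 (SE 0.41, limma adjusted p = 1). The other values were -1.08 (SE 0.61) for Hsd11b1, -0.30 (SE 0.81) for Zbtb16, -0.25 (SE 0.50) for Tsc22d3 and -0.22 (SE 0.91) for Mt1. Positive values were 0.49 (SE 0.77) for Klf9, 0.47 (SE 0.51) for Nr3c1, 0.13 (SE 0.36) for Sgk1, 0.0823 (SE 0.59) for Errfi1 and 0.0694 (SE 0.86) for Mt2. With single libraries left out the Fkbp5 value ran from -1.56 without SF_HPD 1 to -0.91 without SF_HPD 2, and among the 9 libraries without a length trend, where 3 SF_HPD libraries (1.15, 2.86 and 2.61 FPKM) lay below 4 SF_ConD libraries (6.22 to 14.02 FPKM), it was -1.82 (SE 0.32, limma adjusted p = 0.707). Klf9 and Nr3c1 turned sign among those 9 libraries, to -0.25 and -0.0903.

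SF_HPD against SC_ConD compared fragmented sleep with the diet against normal sleep on chow; it shares its libraries with the other comparisons and is not independent of them. Here 3 of the 10 genes had a positive and 7 a negative fold change, with a median of -0.77 against 0.02 over all genes tested. Scaled to each library's own read total the split was also 3 and 7. It was 5 and 5 without SC_ConD 1 (median -0.40) and 2 and 8 without SC_ConD 3 (median -0.85). Errfi1, Mt1, Mt2 and Fkbp5 had the lowest values, and Sgk1, Tsc22d3 and Nr3c1 were the 3 positive genes. Fkbp5 lay below all 3 SC_ConD libraries (8.70 to 9.49 FPKM) in 4 of 5 SF_HPD libraries (1.15 to 5.84 FPKM). As a share of recovered reads, SF_HPD 4 lay above SC_ConD 2.

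Limma called 0 of 10 genes, against 0% of all, with a smallest adjusted p of 0.394 over all genes. An unadjusted p under 0.05 was seen for 2 genes of 10 and for 3.68% of all, and no gene of the 10 lacked overlap, against 0.791% of all that lay higher and 0.853% that lay lower. The log2 fold changes were -1.63 for Errfi1 (SE 0.68, limma adjusted p = 1) and -1.06 for Fkbp5 (SE 0.47, limma adjusted p = 1). For Mt1 the value was -1.44 (SE 1.06), for Mt2 -1.23 (SE 0.997), for Hsd11b1 -0.95 (SE 0.70), for Zbtb16 -0.59 (SE 0.93) and for Klf9 -0.47 (SE 0.89). Sgk1 had 0.43 (SE 0.41), Tsc22d3 0.40 (SE 0.58) and Nr3c1 0.25 (SE 0.59). Errfi1 passed without SC_ConD 1 (-2.64, limma adjusted p = 0.0310) and among the 9 libraries without a length trend (-2.92, limma adjusted p = 0.0123). In these 2 settings 196 and 172 of the 14421 genes passed, 193 and 169 of them lower in SF_HPD. Without SC_ConD 2 and 3 only SC_ConD 1, which has a length trend, was left in its group. Against that single library Errfi1 turned to 0.41, Mt1 to 1.11, Mt2 to 1.19 and Nr3c1 to -0.85.

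**Figure D2:**
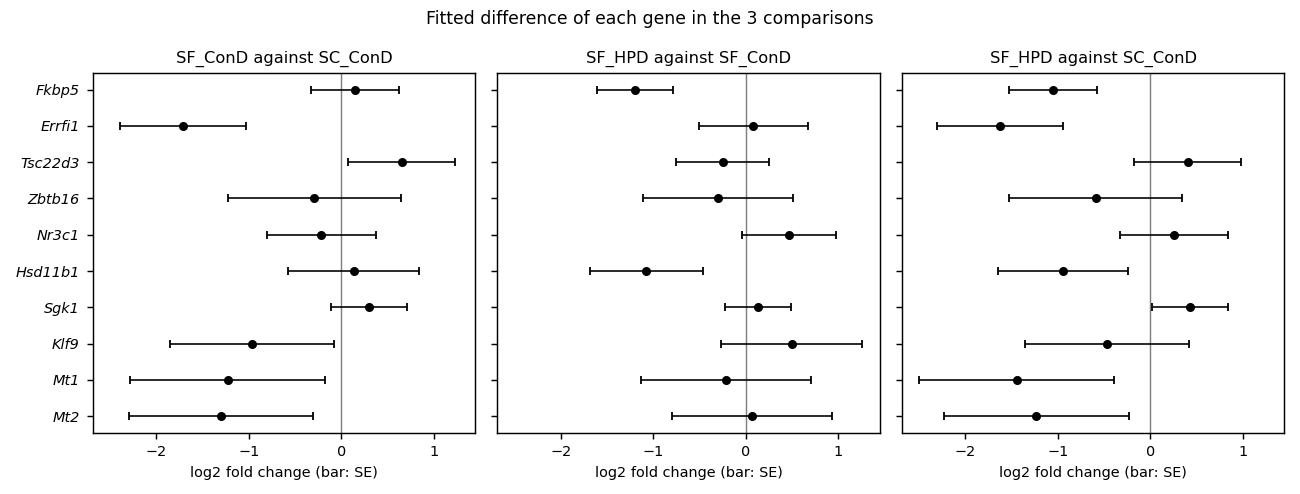
Fitted log2 fold change on the log2(FPKM + 1) scale (horizontal axis) of each of the 10 genes (vertical axis) in the 3 comparisons, with bars for the SE from limma. The lowest values are those of Errfi1 against SC_ConD (-1.71 and -1.63), and the lowest between the sleep-fragmented groups is Fkbp5 (-1.20).

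Across the libraries, Nr3c1, Zbtb16 and Klf9 shared 1 pattern: each was higher in all 4 libraries with a length trend than in any of the other 9. That was so for 3 of the 10 genes, against 13.5% of all genes tested. Among genes at least as long as Klf9 (3263 bases) the share was 23.6%, and 8 of the 10 genes are that long. Fkbp5, the longest of the 10 at 9468 bases, did not show it: it stood at 9.49, 10.8, 12.1 and 5.84 FPKM in SC_ConD 1, SF_ConD 3, SF_HPD 1 and SF_HPD 4 and at 1.15 to 14.02 FPKM in the rest. Since 2 of the 4 libraries are SF_HPD, 1 is SF_ConD and 1 is SC_ConD, the groups are unequal in this respect.

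**Figure D3:**
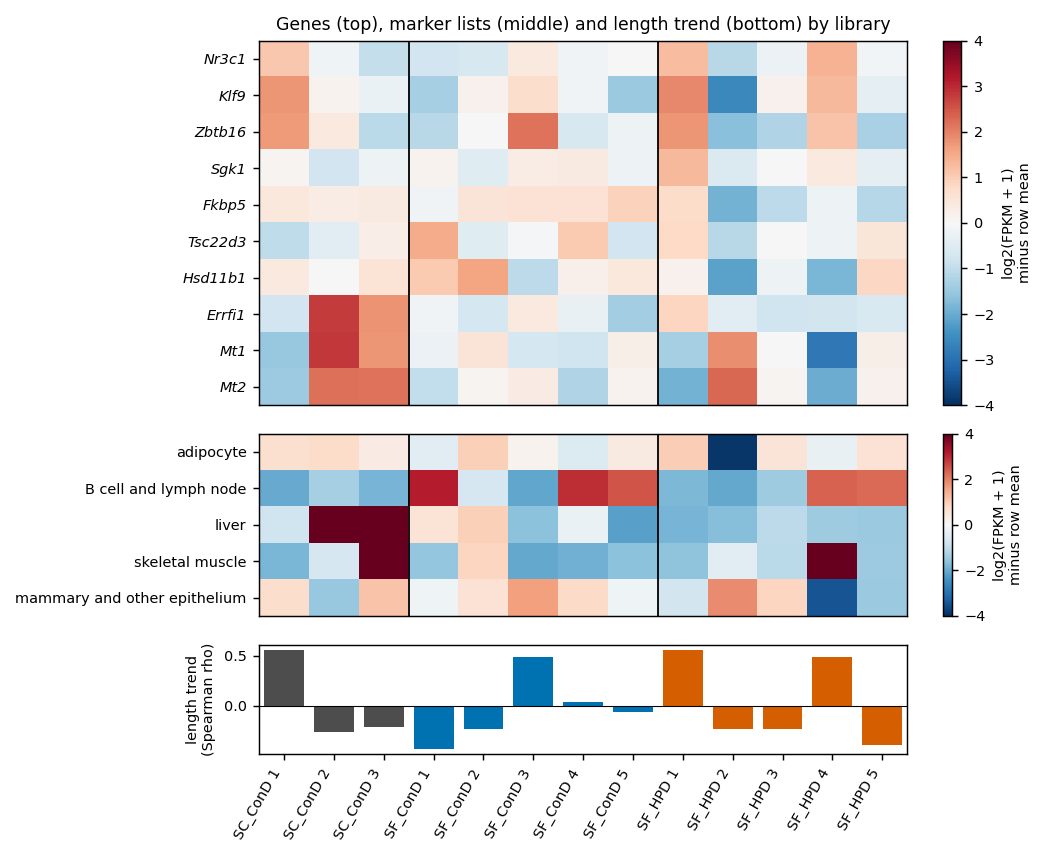
Heat map of the 10 genes (top) and of the mean of 5 marker lists (middle) in the 13 libraries, in log2(FPKM + 1) minus the row's mean, with values beyond the colour scale drawn in its end colour, and the length trend of each library (bottom, Spearman rho). Nr3c1, Klf9 and Zbtb16 are high where the length trend is high. Errfi1, Mt1 and Mt2 are high in SC_ConD 2 and 3, where liver markers are high. Mt1 and Mt2 are also high in SF_HPD 2, where liver markers are low (mean 1.70). In SF_HPD 2, where adipocyte markers are low too, 6 of the 10 genes are lowest.

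Pairs of the 10 genes were compared over the 13 libraries by Pearson's r of log2(FPKM + 1), with permutation p-values from 100000 resamples adjusted over the 45 pairs. Of the 45 pairs 8 passed, 4 of them positive. This split depended on the scaling: on the TPM scale 12 passed, all 12 of them positive, and with each library's own read total 15 passed, 11 of them positive. On the FPKM scale the 4 libraries with a length trend lie apart for some genes. SC_ConD 2, SC_ConD 3 and SF_HPD 2 lie apart for the metallothioneins on that scale. Values are therefore given within subsets. In the 10 libraries other than those 3, Mt1 and Mt2 were high and low together (r = 0.831, permutation p = 0.00202, adjusted p = 0.0454; Spearman rho = 0.733, permutation p = 0.0212, adjusted p = 0.199; r = 0.749 without the 2 libraries farthest from the median of Mt1). In the 9 libraries without a length trend, which include those 3, r was 0.952 (permutation p = 0.00032, adjusted p = 0.0144), and it was the only pair of the 45 to pass there.

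The receptor gene Nr3c1 was lower where Mt1 was higher in the same 10 libraries (r = -0.859, permutation p = 0.00088, adjusted p = 0.0396; rho = -0.709, permutation p = 0.0268, adjusted p = 0.199; r = -0.756 without the 2 farthest). In the 9 libraries without a length trend this r was -0.35 and did not pass. Over the 13 libraries Nr3c1 and Mt1 passed on log2(FPKM + 1) (r = -0.785, permutation test, adjusted p = 0.0118). They also passed with own read totals (r = -0.804, permutation test, adjusted p = 0.00682), but not on the TPM scale (permutation test, adjusted p = 0.0505). These genes are among the longest and shortest of the 10, at 7425 and 1246 bases. Sgk1 and Mt1 gave r = -0.622 in the 10 libraries (permutation p = 0.0600, adjusted p = 0.193; rho = -0.855, permutation p = 0.00265, adjusted p = 0.119), and -0.83 in the 9 libraries without a length trend (permutation p = 0.00602, adjusted p = 0.135). Over the 13 libraries Sgk1 and Mt1 passed on log2(FPKM + 1) (r = -0.756, permutation test, adjusted p = 0.0183; rho = -0.918, permutation test, adjusted p = 0.00135). With own read totals this pair passed too (r = -0.719, permutation test, adjusted p = 0.0266), but on the TPM scale it did not (permutation test, adjusted p = 0.0820). Mt2 passed over the 13 libraries with Sgk1 (r = -0.768, permutation test, adjusted p = 0.0103) and with Nr3c1 (r = -0.725, permutation test, adjusted p = 0.0309). Neither of these Mt2 pairs passed on the TPM scale or in the 9 libraries without a length trend. Every negative pair that passed on log2(FPKM + 1) thus held a metallothionein gene. The 3 pairs of Nr3c1, Zbtb16 and Klf9 passed over the 13 libraries (r of 0.794 to 0.817, permutation test, adjusted p = 0.0103 for each). In the 9 libraries without a length trend their r was 0.43 to 0.48, and none of the 3 passed. All libraries share the tissue content and scaling differences given above.

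**Figure D4:**
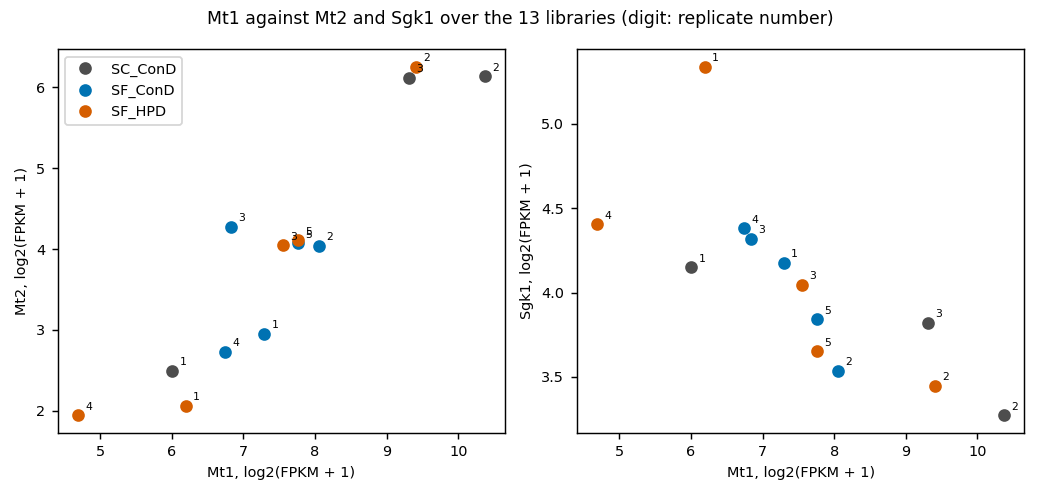
Mt1 (horizontal axis) against Mt2 (left, vertical axis) and against Sgk1 (right, vertical axis), all as log2(FPKM + 1), each point being 1 library coloured by group and numbered by replicate. SC_ConD 2, SC_ConD 3 and SF_HPD 2 lie apart at the top of Mt1, and Mt2 is higher where Mt1 is higher among the other 10 libraries too.

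The genes whose levels were most like each of the 10 were taken by r over the 13 libraries among 9459 named protein-coding genes whose mean reached 2 FPKM, as a description. For Fkbp5 they were the fatty acid elongase gene Elovl5 (0.876), Slc25a30 (0.849) and Cwc22 (0.847). For Tsc22d3 they were Nfkbia (0.895), the NF-kappa B inhibitor gene, and Ddit4 (0.876), both listed here as other targets of the receptor, and Casp8 (0.815). For Errfi1 they were the chaperone gene Dnajc3 (0.945), Arl4d (0.934) and the zinc importer gene Slc39a14 (0.904). Hsd11b1 had Nup54 (0.924), Tmem204 (0.901) and Clptm1 (0.897), and Sgk1 had Irf2bp2 (0.929), Etv3 (0.927) and Wdr6 (0.898).

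The nearest genes of the receptor gene Nr3c1 were long ones: Utrn (0.975, 17108 bases), the coactivator gene Ncoa1 (0.970, 8576 bases) and Spag9 (0.968, 11209 bases). Zbtb16 had Mapk8ip3 (0.960), Sik3 (0.946) and Ogfod1 (0.945), of 5846 to 14558 bases, and Klf9 had Nploc4 (0.975, 4776 bases) and Amotl2 (0.960, 6289 bases). The nearest genes of the metallothioneins were short: Dctn3 (0.982, 1042 bases), Serf1 (0.980, 1300 bases) and Akip1 (0.969, 1305 bases) for Mt1, and Serf1 (0.945), Cfap126 (0.942) and Pfdn2 (0.941, 1937 bases) for Mt2. The median length of all genes tested was 3589 bases.

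Genes of the wider pathway were read from lists, in which limma called no gene in any comparison. A list of 15 genes, all kept, held the receptor's chaperones, co-chaperones and coregulators and the related receptor gene Nr3c2. Fold changes were positive in 8 for SF_ConD against SC_ConD, in 9 for SF_HPD against SF_ConD and in 9 for SF_HPD against SC_ConD. Their medians of 0.00783, 0.0459 and 0.0823 lay beside -0.03, 0.01 and 0.02 over all genes. Stip1, which hands the receptor from one heat shock protein to another, was at 20.8 ± 3.39 FPKM in SC_ConD, 31.3 ± 3.59 FPKM in SF_ConD and 27.8 ± 2.61 FPKM in SF_HPD (SD, n = 3, 5 and 5). On the FPKM scale every sleep-fragmented library lay above the 3 SC_ConD libraries (17.5 to 24.3 FPKM). Scaled to each library's own read total, SF_HPD 2 and SF_ConD 1 lay below SC_ConD 1. Of all genes tested, 1.68% lay higher without overlap in SF_ConD than in SC_ConD, and 0.791% in SF_HPD. Stip1 did not pass (0.57, SE 0.26, limma adjusted p = 0.861, in SF_ConD against SC_ConD). The named genes with the next smallest p were the phosphatase gene Ppp5c (-0.46, SE 0.26, in SF_HPD against SF_ConD, and 0.49, SE 0.30, in SF_ConD against SC_ConD), the co-chaperone gene St13 (-0.50, SE 0.34, in SF_ConD against SC_ConD) and the corepressor gene Nrip1, which lay between 8.13 and 14.05 FPKM in the 4 libraries with a length trend and at no more than 4.75 FPKM elsewhere.

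Of 7 genes of hormone clearance and transport 3 were kept: Srd5a1, Abcb1a and Abcb1b. None passed. Srd5a1, a reductase of steroid hormones, was at 202 FPKM in SF_HPD 2 and at 0.241 to 3.11 FPKM in the other 12 libraries. Hsd11b2, the enzyme that inactivates corticosterone, was not kept and was at no more than 1.48 FPKM in any library. H6pdh, which supplies the cofactor of Hsd11b1, was not analysed here.

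Of 40 other target genes of the receptor 39 were kept, and 14, 13 and 10 had a positive fold change against 25, 26 and 29 negative in the same order of comparisons. The medians were -0.08, -0.34 and -0.33 beside -0.03, 0.01 and 0.02 over all genes. The liver enzyme gene Tat, at 253 and 146 FPKM in SC_ConD 2 and 3 and no more than 5.10 FPKM elsewhere, had the lowest fold change (-4.97, SE 1.20, limma adjusted p = 0.394, in SF_HPD against SC_ConD). Tgm2, a transglutaminase gene, was at 37.2 ± 14.4 FPKM in SF_ConD, 23.4 ± 12.4 FPKM in SF_HPD and 95.1 ± 37.4 FPKM in SC_ConD (SD, n = 5, 5 and 3). On the FPKM scale it lay lower without overlap in both sleep-fragmented groups, against 1.92% (SF_ConD) and 0.853% (SF_HPD) of all genes tested. Scaled to each library's own read total, SF_ConD 3 lay above SC_ConD 3. Tgm2 did not pass (-2.09, SE 0.51, limma adjusted p = 0.394, in SF_HPD against SC_ConD). SC_ConD 1 (liver marker mean 2.62) had 64.8 FPKM of Tgm2 against no more than 57.7 FPKM in SF_ConD and 39.5 FPKM in SF_HPD. The cell cycle inhibitor gene Cdkn1c stood at 21.01 ± 7.27 FPKM in SC_ConD and 7.89 ± 2.16 FPKM in SF_ConD without overlap (SD, n = 3 and 5; -1.28, SE 0.42, limma adjusted p = 0.777). Lcn2, an acute-phase gene, was at 398 and 335 FPKM in SC_ConD 2 and 3 and at no more than 59.7 FPKM elsewhere.

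Pck1, a target gene that makes glycerol precursors in fat, lay at 270 to 2163 FPKM in 12 libraries and at 1.04 FPKM in SF_HPD 2, where Klf9, Fkbp5 and Zbtb16 were also lowest.

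Among metal-responsive and zinc transport genes, 9 of 11 kept, 1, 5 and 1 had a positive fold change in the 3 comparisons, with medians of -0.48, 0.11 and -0.37. Slc39a14, the zinc importer of liver, was at 30.4 and 15.96 FPKM in SC_ConD 2 and 3 and no more than 2.25 FPKM elsewhere (-2.54, SE 0.66, limma adjusted p = 0.394, in SF_HPD against SC_ConD). SF_HPD 2, the other library high in Mt1 and Mt2, had 0.120 FPKM of Slc39a14, the lowest of all. Slc39a8, another zinc importer gene, lay lower in SF_HPD (0.301 to 1.62 FPKM) than in SC_ConD (1.74 to 6.07 FPKM) without overlap in FPKM. Scaled to each library's own read total, SF_HPD 1 lay above SC_ConD 1. Slc39a8 did not pass (-1.43, SE 0.40, limma adjusted p = 0.447). The zinc exporter gene Slc30a1 and the importer gene Slc39a1 overlapped between groups, at 2.31 to 10.01 FPKM and 29.3 to 77.9 FPKM.

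Of 15 genes of the clock and its output, a list that holds none of the 10 genes, 14 were kept, and 3, 9 and 9 had a positive fold change, with medians of -0.23, 0.33 and 0.17. The clock output gene Dbp was at 30.0 to 61.0 FPKM in SF_HPD and 10.2 to 26.8 FPKM in SF_ConD. In FPKM it lay higher without overlap, against 0.229% of all genes tested. Scaled to each library's own read total, SF_HPD 2 lay below SF_ConD 2. Dbp did not pass (1.26, SE 0.33, limma adjusted p = 1). Nfil3, which represses the targets of Dbp, and the repressor genes Cry1 and Per3 overlapped between the groups of each comparison.

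**Figure D5:**
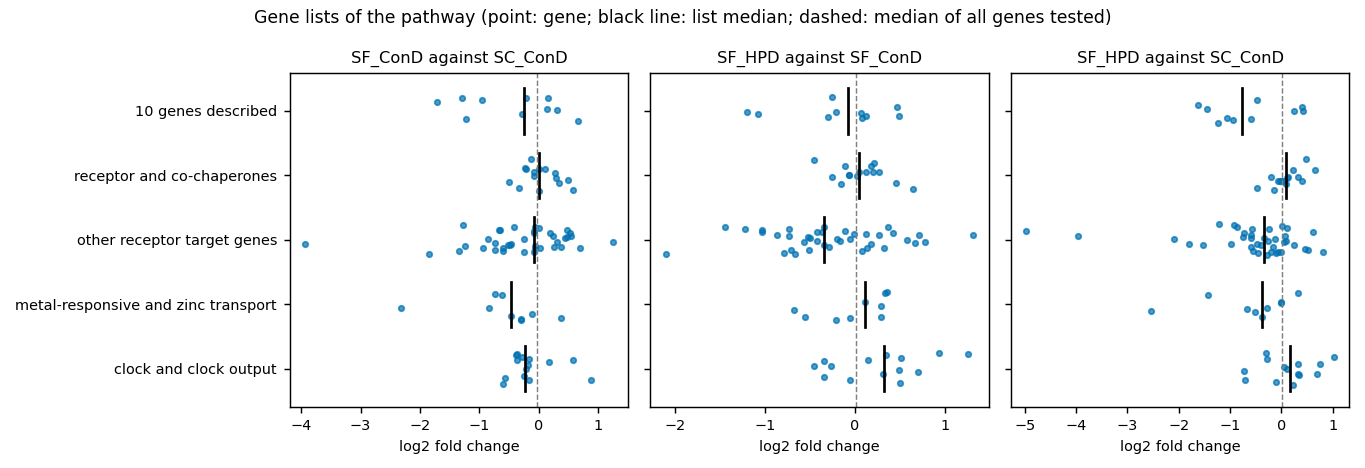
Fitted log2 fold change (horizontal axis) of every kept gene of the 10 described and of 4 further lists (vertical axis) in the 3 comparisons; each point is a gene, the black line the median of the list and the dashed line the median of all genes tested. In SF_HPD against SC_ConD the medians of the 10 genes (-0.77) and of the other receptor targets (-0.33) lie below that of all genes (0.02), and no point passed the test.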

How the data were processed

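Bulk RNA-seq of inguinal white adipose tissue was available for 13 mice. The authors deposited 1 table of gene FPKM values; the tools featureCounts (1.5.0-p3), HISAT2 (2.0.5) and CASAVA and the build mm8 are named in the submitters' processing notes, without roles. The coordinates in the table are those of GRCm38: of 54532 gene identifiers 54409 are in GENCODE M21 and 53499 have the same start and end, as do 8 of the 10 genes (not Nr3c1 and Klf9). Values were whole multiples of 1 read within a tolerance of 0.05 (100.0% of values in every library after rounding), so reads were recovered from FPKM and gene length, 14815592 to 18303302 per library. The total the FPKM values are scaled to was 0.479 (SF_HPD 2) to 1.23 (SF_HPD 1) times these reads; the sources used here do not say how it was set. Limma-voom on the recovered reads called 0 genes in each comparison. The 10 genes and all lists were chosen with earlier results of these data known.

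Genes with at least 1 FPKM in at least 3 libraries were fitted on log2(FPKM + 1) with limma 3.58.1 (R 4.3.3, trend and robust options, group means over 13 libraries), two-sided, with Benjamini-Hochberg adjustment over 14421 genes and a threshold of 0.05. A fold change on this scale understates that of low genes. Pair correlations and their permutation p-values used numpy 2.4.6, and ranks and the length trend used scipy 1.17.1 (Python 3.11.15). Named were the 10 genes, up to 4 genes per pathway list by smallest p, and the 3 genes most like each of the 10, of which 1 is not reported here; Pck1, Hsd11b2 and H6pdh were named after values were seen. Marker lists covered adipocytes, B cells and lymph node, T and NK cells (3.24 to 4.70 in the lymphoid-rich libraries, at most 1.20 elsewhere), macrophages, liver, muscle, epithelium, stroma and endothelium. Alternatives were the pseudocount, filter, scaling, limma-voom on recovered reads, the replicate block and libraries left out. Replicates are individual mice. The fit was tested on simulated data.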

Additional observations from a re-analysis of the deposited data

Results flagged for a closer look

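Errfi1 in SF_HPD 1 stood apart from the other 4 libraries of its group, at a log2(FPKM + 1) of 4.87 (28.2 FPKM) against 8.37 to 10.9 FPKM. The gap to the nearest library was 0.790 of the group's range, above Dixon's critical value of 0.71 for 5 samples. Of 20 groups of 5 libraries tested for the 10 genes 1 had such a library, and chance gives about 1 in 20.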

How the results depend on the processing

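No gene was called in any comparison under the other pseudocount, filter, scalings or limma-voom, nor with the replicate block, where 0 genes passed in each comparison and the call of no member changed. Same-numbered libraries correlated at -0.558, 0.190 and -0.316 between SF_ConD and SC_ConD, where no number correlated best with its own. Between SF_HPD and SF_ConD they correlated at -0.670 to 0.405, and numbers 4 (0.325) and 5 (0.405) correlated best with their own. Between SF_HPD and SC_ConD the values were 0.711, 0.333 and 0.191, and only number 1 correlated best with its own. The labels give no source of a pairing. Among the 9 libraries with a low length trend, chosen with the data in view, 162 genes passed in SF_ConD against SC_ConD and 172 in SF_HPD against SC_ConD. With single libraries left out the counts ran from 0 to 194, 0 to 1 and 0 to 196 in the 3 comparisons in the order of the report, the highest without SC_ConD 1, SF_HPD 5 and SC_ConD 1. The median of the 10 genes ran from -0.69 to 0.18, -0.19 to 0.21 and -1.01 to -0.40, and for SF_HPD against SC_ConD it was -1.15 with a pseudocount of 0.1. Scaling moved the median of all genes from -0.03, 0.01 and 0.02 to 0.16, 0.0472 and 0.25 as TPM and to 0.16, -0.0656 and 0.13 with own read totals. The number of the 45 gene pairs passing was 8, and it was 1 among the libraries with a low length trend, 12 on the TPM scale (all 12 positive), 15 with own read totals (11 positive), 18 for deviations from group means and 2 without the 3 libraries highest in Mt1. The cause of these shifts was not tested.

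No log2 fold change that turned sign had passed. Without SC_ConD 2 and 3 only SC_ConD 1, which has a length trend, was left in SC_ConD. Against that single library SF_ConD gave 0.33 for Errfi1, -0.10 for Sgk1, 1.33 for Mt1 and 1.12 for Mt2. SF_HPD gave 0.41 for Errfi1, -0.85 for Nr3c1, 1.11 for Mt1 and 1.19 for Mt2. Without the lymphoid-rich libraries the values were 0.75 for Zbtb16 and -0.0396 for Hsd11b1 (SF_ConD against SC_ConD), 0.17 for Tsc22d3, -0.60 for Klf9, 0.27 for Mt1 and -0.0395 for Mt2 (SF_HPD against SF_ConD), and -0.0202 for Nr3c1 (SF_HPD against SC_ConD). Among the libraries with a low length trend they were 0.18 for Nr3c1 (SF_ConD against SC_ConD), -0.0903 for Nr3c1, -0.27 for Sgk1, -0.25 for Klf9 and 0.78 for Mt1 (SF_HPD against SF_ConD), and -0.11 for Tsc22d3 (SF_HPD against SC_ConD). With own read totals Nr3c1 was 0.0162 in SF_ConD against SC_ConD, and Errfi1 -0.0329 and Mt2 -0.0787 in SF_HPD against SF_ConD, where Mt2 was -0.22 with quantile normalization and -0.26 with limma-voom.

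Leaving out single libraries turned the sign within these ranges: in SF_ConD against SC_ConD, Zbtb16 -1.01 to 0.40, Nr3c1 -0.68 to 0.34 and Hsd11b1 -0.15 to 0.51; in SF_HPD against SF_ConD, Errfi1 -0.22 to 0.29, Tsc22d3 -0.51 to 0.0562, Zbtb16 -0.80 to 0.24, Sgk1 -0.16 to 0.31, Mt1 -0.79 to 0.39 and Mt2 -0.57 to 0.50; in SF_HPD against SC_ConD, Zbtb16 -1.31 to 0.0963, Nr3c1 -0.21 to 0.81 and Klf9 -0.93 to 0.20. Over all alternatives the limma adjusted p of Errfi1 ran from 0.00934 to 1 in SF_ConD against SC_ConD and from 0.0123 to 1 in SF_HPD against SC_ConD, and that of Fkbp5 in SF_HPD against SF_ConD from 0.707 to 1. At an unadjusted p under 0.05 there were 828, 273 and 531 genes with limma and 639, 251 and 470 with limma-voom. Counting error weighs most on Zbtb16 and Mt2, with 0 and 29 reads in their lowest libraries.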
